A study of Homo sapiens with 8 samples.

Results

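Scaffold culture of human liver cells, static and perfused pooled, was compared with flat monolayer culture on Illumina HumanHT-12 v4 bead arrays, which read 1 RNA sample each in 1 colour. All 8 arrays of the series entered the comparison. The scaffold side held 5 arrays: 3 labelled 3D, from cells standing still in a microporous polycarbonate support (MatriGrid), and 2 labelled 3DBR, from the same support inside a pump-driven bioreactor. They are called static 3D and perfused 3D here. The other side held 3 arrays labelled 2D, from monolayers. All cultures ran for 5 days. The scaffolds were started with 1000000 cells and the monolayers with 250000, so culture format and the number of cells seeded cannot be told apart. The labels name the cells HepG2, a hepatocellular carcinoma line, while the design text speaks of hepatocytes of 3 donors, and this was not settled. The design text counts 3 perfused cultures, and 2 perfused arrays were analysed here. Nothing in the labels says which arrays share a culture run, so p-values measure the spread between these arrays.

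The arrays did not form groups by format alone. Static 3D array 1 and 2D array 1 were nearest to each other (Pearson r 0.92 across 11031 genes), and both held few of the macrophage and fibroblast transcripts found on the other 6 arrays. C1QB, a complement subunit made by macrophages, had log2 levels of 5.44, 11.88 and 11.29 in static 3D and 12.78 and 10.92 in perfused 3D, against 5.46, 12.72 and 10.997 in 2D. Of 18 macrophage markers measured (22 listed), 6 were detected on static 3D array 1 and 9 on 2D array 1, against 16 to 18 on the others. The markers' mean level ran between 7.32 and 10.63 in scaffold arrays and between 7.06 and 10.62 in 2D arrays. Dividing cells showed the reverse: TOP2A, the topoisomerase of replicating cells, had 10.64, 6.55 and 7.83 in static 3D and 7.30 and 6.62 in perfused 3D, against 10.69, 7.91 and 6.71 in 2D. One such array lay on each side. Most list medians moved when 2D array 1, or both arrays, were left out, and values without them stand beside the lists that moved most. All 15 hepatocyte markers listed were measured on these arrays. ALB, the albumin gene, sat near the top of the scale on every array, at 15.70, 15.70 and 15.62 in static 3D and 15.70 and 15.67 in perfused 3D, against 15.78, 15.64 and 15.64 in 2D, and the groups overlapped. In such mixed cultures fewer cells of a type and less RNA per cell cannot be told apart.

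Hepatocytes make most plasma proteins, including clotting factors, complement and apolipoproteins, and lose much of this output when kept as flat monolayers. Cells that run short of oxygen stabilise hypoxia-inducible factors, which switch on genes of glucose uptake, glycolysis and vessel growth. These factors bind DNA at a short core, ACGTG or GCGTG, in promoters and enhancers.

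The gene that passed the test belongs to a list of oxygen-response and glycolysis genes, and the 250 bases before the start are shown for it and for 4 others of the list in which all scaffold arrays exceeded all 2D arrays. The sequences are RefSeq's on GRCh38.p14, written 5′ to 3′ on the gene's strand, with each ACGTG or GCGTG, on either strand, in capitals.
PFKFB4, chr3:48556804-48557053, minus strand: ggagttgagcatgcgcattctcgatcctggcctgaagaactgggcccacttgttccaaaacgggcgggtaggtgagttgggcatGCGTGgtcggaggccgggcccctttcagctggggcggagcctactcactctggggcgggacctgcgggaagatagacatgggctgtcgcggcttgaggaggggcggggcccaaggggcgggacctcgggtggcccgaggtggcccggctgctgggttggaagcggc
ENO2, chr12:6914330-6914579, plus strand: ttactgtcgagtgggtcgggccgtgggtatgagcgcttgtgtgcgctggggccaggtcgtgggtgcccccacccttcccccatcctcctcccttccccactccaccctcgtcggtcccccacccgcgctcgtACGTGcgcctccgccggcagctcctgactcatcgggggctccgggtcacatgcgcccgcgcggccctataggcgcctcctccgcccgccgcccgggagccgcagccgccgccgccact
PFKFB3, chr10:6144671-6144920, plus strand: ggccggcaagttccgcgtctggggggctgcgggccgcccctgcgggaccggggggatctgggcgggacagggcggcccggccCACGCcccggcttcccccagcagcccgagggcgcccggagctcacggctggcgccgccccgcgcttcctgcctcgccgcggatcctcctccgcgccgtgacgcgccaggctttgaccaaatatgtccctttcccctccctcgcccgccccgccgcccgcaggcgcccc
ALDOC, chr17:28576896-28577145, minus strand: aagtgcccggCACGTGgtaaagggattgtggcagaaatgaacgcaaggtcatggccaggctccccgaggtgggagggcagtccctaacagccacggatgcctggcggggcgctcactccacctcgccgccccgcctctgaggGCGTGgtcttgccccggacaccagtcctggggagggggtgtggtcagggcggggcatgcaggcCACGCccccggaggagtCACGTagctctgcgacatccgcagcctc
SLC2A1, chr1:42958869-42959118, minus strand: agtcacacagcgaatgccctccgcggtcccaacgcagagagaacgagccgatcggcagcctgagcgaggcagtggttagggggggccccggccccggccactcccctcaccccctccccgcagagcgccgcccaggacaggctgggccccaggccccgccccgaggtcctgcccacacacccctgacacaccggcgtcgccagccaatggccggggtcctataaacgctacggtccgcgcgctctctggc
PFKFB4 and PFKFB3 each held 1 GCGTG, 166 and 168 bases before the start. ENO2 held 1 ACGTG 118 bases before it, ALDOC held 5 matches, of which the first 2 overlap as the palindrome CACGTG, and SLC2A1 held none in this window. Of 32 members of the hypoxia and glycolysis list with a promoter in the table, 16 (50%) held ACGTG on either strand, against 23.3% of 8862 tested genes with a promoter and 18.7% of all 27305 promoters in the table. Either core stood in 23 of the 32 (71.9%), against 56.1% of tested genes and 43.1% of all promoters. GCGTG alone was no more common in the list, in 13 of the 32 (40.6%), against 44.0% of tested genes. These shares count listed members whatever their direction on the arrays, so they describe the list and not the comparison of formats. Among genes with every scaffold array below every 2D array, 64.7% of 215 promoters held either core. On the higher side 52.9% of 223 promoters held either core and 22.4% held ACGTG, no more than among tested genes. A promoter was in the table for 78.2% of the 285 higher genes, against 80.6% of tested genes. The list's promoters were also richer in G and C, with a median of 69.2% against 64.4% in tested genes, and the part of base composition in the motif share was not tested.

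The change that passed the test was in a regulator of glycolysis. PFKFB4, an enzyme that makes the activator of phosphofructokinase, rose in scaffold culture by 1.98 on the log2 scale (SE 0.21, 95% interval 1.501 to 2.46, limma adjusted p 0.0484), which is a 3.94-fold higher intensity. It read 10.59, 9.98 and 10.22 in static 3D and 10.49 and 9.94 in perfused 3D, against 8.33, 8.27 and 8.20 in 2D. Every scaffold array lay above every 2D array, and the spread was small on both sides (SD 0.30, n = 5, in scaffold and 0.07, n = 3, in 2D). It was the only gene called among 11031 (0.00907%), and none was called lower. At an unadjusted p under 0.05 there were 716 genes (6.49%), 402 higher and 314 lower in scaffold. The PFKFB4 difference lay between 1.36 and 2.06 in 26 other settings, always higher, with adjusted p from 0.0153 to 0.874 and a call in 6 of them. Leaving out any single array other than perfused 3D array 2 ended the call, with adjusted p between 0.0625 without 2D array 2 and 0.531 without 2D array 3, and without static 3D array 1 and 2D array 1 the difference was 1.92 (adjusted p 0.0735).

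A second way of reading the arrays is to ask in which genes all 5 scaffold arrays lay on one side of all 3 monolayer arrays. That held for 285 genes higher in scaffold (2.58% of those tested) and 252 lower (2.28%), 537 in all (4.87%). With so few arrays some genes part in this way by ordering alone, and how many was not tested. Lack of overlap therefore describes a gene on these arrays and does not by itself show a difference between formats. The higher ones differed more: 70 of the 285 exceeded 1 on the log2 scale, against 5 of the 252, with median sizes of 0.60 and 0.47. Over all genes the median difference was 0.00 and 50.6% were higher. Apart from PFKFB4, none of the genes described from here on passed the test across all genes, and their values are given as measured.

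**Figure D1:**
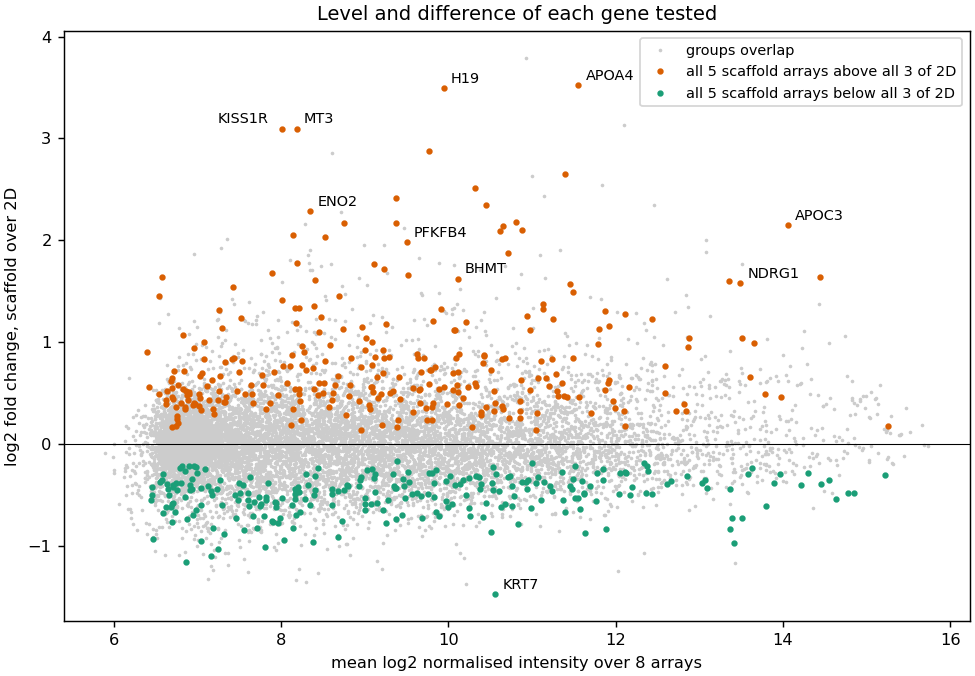
Each point is one of 11031 genes, with its mean log2 normalised intensity over 8 arrays on the horizontal axis and its log2 fold change, scaffold over 2D, on the vertical axis. The 285 genes with every scaffold array above every 2D array (orange) reach further from 0 than the 252 with every scaffold array below (green).

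Oxygen-response and glycolysis genes stood on the higher side as a group. Of 40 genes listed, 36 were measured, 31 were higher in scaffold and 5 lower, with a median log2 difference of 0.70 against 0.00 over all genes. In 12 of the 36 (33.3%) every scaffold array lay above every 2D array, against 2.58% of all genes, and in none below. PFKFB4 was the member called. The mean of the list was 10.86, 11.31 and 11.35 in static 3D and 11.37 and 11.14 in perfused 3D, against 10.13, 10.58 and 10.56 in 2D, with no overlap. Without 2D array 1 the median was 0.45, and without that array and static 3D array 1 it was 0.58, with 17 members above both 2D arrays (6.65% of all genes were so placed).

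Glycolytic enzymes came first. ENO2, an enolase, had 9.05, 9.52 and 8.85 in static 3D and 9.78 and 8.82 in perfused 3D, against 6.69, 7.70 and 6.37 in 2D, where it was detected on 1 array of 3. The groups did not overlap, and the difference was 2.29 (SE 0.35, adjusted p 0.209). ALDOC, an aldolase, read 11.55, 11.45 and 12.09 in static 3D and 11.64 and 11.39 in perfused 3D, against 9.67, 10.32 and 10.92 in 2D. PFKFB3, the sister enzyme of PFKFB4, read 11.64, 12.41 and 12.50 in static 3D and 12.50 and 12.08 in perfused 3D, against 10.96, 11.30 and 11.02 in 2D. Neither overlapped, with differences of 1.32 (SE 0.29) for ALDOC and 1.13 (SE 0.23) for PFKFB3, whose 2 probes gave 0.70 and 1.13. SLC2A1, the glucose transporter of many dividing cells, had 10.85, 10.62 and 10.38 in static 3D and 11.07 and 10.84 in perfused 3D, against 10.20, 9.14 and 10.30 in 2D, a narrow separation. The liver isoform of phosphofructokinase, PFKL, differed by 0.72 (SE 0.27), and its lowest scaffold value of 9.77 stood just above its highest 2D value of 9.68. Without static 3D array 1 and 2D array 1 it differed by 0.31.

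Secreted signals and stress genes known to respond to low oxygen followed. VEGFA, the growth factor of blood vessels, had 9.73, 10.002 and 9.87 in static 3D and 10.39 and 9.41 in perfused 3D, against 7.48, 8.65 and 8.35 in 2D. The groups stood apart by 1.72 (SE 0.31, adjusted p 0.365), and its other probe gave 2.09. EPO, the erythropoietin gene, had 10.84, 8.96 and 8.69 in static 3D and 10.05 and 9.29 in perfused 3D, against 6.34, 8.46 and 7.41 in 2D. Its spread was wide, and the lowest scaffold value lay just above the highest 2D value. The difference was 2.17, or 1.32 without static 3D array 1 and 2D array 1. STC1, a secreted calcium-regulating glycoprotein outside the list, read 8.80, 9.03 and 9.43 in static 3D and 8.92 and 8.90 in perfused 3D, against 6.93, 7.73 and 7.57 in 2D. The scaffold values were tight (SD 0.25, n = 5), above all of 2D, and the difference was 1.61 (SE 0.25, adjusted p 0.209).

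NDRG1, a stress-responsive cytoplasmic protein, was among the brightest of these genes, with 14.53, 13.95 and 14.09 in static 3D and 14.21 and 13.61 in perfused 3D, against 11.96, 12.92 and 12.62 in 2D. The groups did not overlap, at a difference of 1.58 (SE 0.26, adjusted p 0.236). ERO1A, an oxidase that helps form disulfide bonds in the endoplasmic reticulum, differed by 1.25 (SE 0.25). BNIP3, a mitophagy receptor, differed by 0.76 (SE 0.22) and KDM3A, a histone demethylase, by 0.83 (SE 0.33). All 3 separated the formats, and KDM3A was detected on all 5 scaffold arrays and on none of 2D, at least 1.49-fold higher in scaffold. HILPDA, a lipid droplet protein of hypoxic cells, was not on the list. It read 8.02, 9.93 and 10.29 in static 3D and 10.39 and 9.76 in perfused 3D, against 8.33, 6.01 and 6.13 in 2D. The groups overlapped only through static 3D array 1 and 2D array 1. Without these arrays HILPDA was the single gene called (adjusted p 0.00177), which was its only call in 25 other settings. They were its lowest scaffold and its highest 2D array, so leaving them out raises its difference, here from 2.86 to 4.03. HILPDA was not above background on the other 2D arrays, and there was at least 9.48-fold higher in scaffold.

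**Figure D2:**
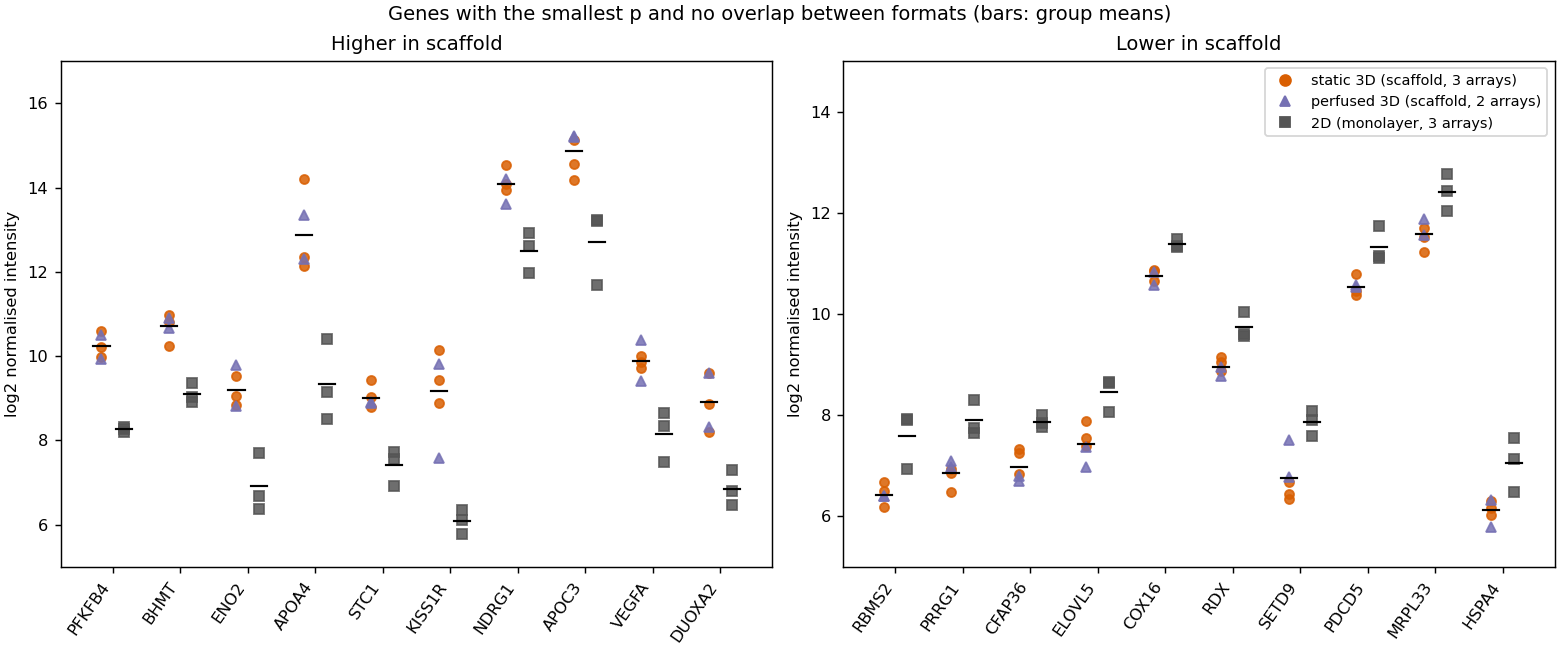
Log2 normalised intensity (vertical axis) on each array for the 10 genes of smallest p on either side among those whose formats do not overlap, with static 3D as circles, perfused 3D as triangles, 2D as squares and group means as black bars. PFKFB4 separates the formats with the tightest 2D values (SD 0.07), and the lower genes on the right differ by 0.63 to 1.16.

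Plasma protein genes made up the other large block on the higher side. In the coagulation and complement list 36 of 37 measured genes were higher and 1 lower, with a median of 1.10. In 7 (18.9%) every scaffold array lay above every 2D array, against 2.58% of all genes. SERPINC1, which encodes antithrombin, had 11.70, 11.36 and 12.33 in static 3D and 12.29 and 12.52 in perfused 3D, against 9.83, 10.98 and 10.61 in 2D, and SERPINF2, antiplasmin, had 12.02, 10.49 and 11.26 in static 3D and 10.44 and 10.01 in perfused 3D, against 6.23, 9.60 and 8.07 in 2D. Neither overlapped, with differences of 1.57 (SE 0.33) and 2.88 (SE 0.70). C1R, a protease that starts complement activation, differed by 2.09 (SE 0.51), PLG, plasminogen, by 2.35 (SE 0.60) and KNG1, kininogen, by 2.65 (SE 0.77), all without overlap. 2D array 1 was the lowest array for each of these 5 genes. Without it and static 3D array 1 the differences of SERPINF2, PLG and KNG1 were 1.71, 1.55 and 1.58. The list mean lay between 10.60 and 11.15 in scaffold, against 8.57, 10.59 and 10.06 in 2D, so that the means did not overlap but 2D array 2 nearly reached the scaffold range. Without 2D array 1 the median was 0.42, and without it and static 3D array 1 it was 0.44, with 31 of 37 genes higher. In that setting 8 of the genes lay above both 2D arrays, as did 6.65% of all genes.

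Apolipoproteins and plasma carriers gave the largest single difference among separated genes. APOA4, a lipoprotein of lipid transport, had 14.21, 12.35 and 12.15 in static 3D and 13.35 and 12.31 in perfused 3D, against 8.51, 10.40 and 9.14 in 2D. All 5 scaffold arrays lay well above the 2D arrays, at 3.52 (SE 0.55, adjusted p 0.209), an 11.5-fold difference in intensity. APOC3, an inhibitor of triglyceride clearance, read 14.55, 14.19 and 15.13 in static 3D and 15.22 and 15.20 in perfused 3D, against 11.69, 13.21 and 13.23 in 2D, without overlap (2.15, SE 0.39, adjusted p 0.365). TF, transferrin, was higher by 1.64 (SE 0.36) and HPX, the haem carrier hemopexin, by 1.28 (SE 0.39), both without overlap, though HPX gave 0.76 without static 3D array 1 and 2D array 1. Of 26 genes measured 24 were higher, 6 of them (23.1%) without overlap, against 2.58% of all genes. The median was 0.88, or 0.50 without 2D array 1 and 0.48 without both arrays.

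Acute-phase genes leaned the same way in all 23 measured, with a median of 0.94. Of these 2 (8.70%) separated the formats, against 2.58% of all genes higher without overlap. LCN2, a siderophore-binding protein, read 12.37, 11.98 and 11.94 in static 3D and 12.02 and 13.50 in perfused 3D, against 11.05, 11.19 and 10.93 in 2D, all scaffold arrays above. The other was CEBPD, a transcription factor of that response, at 0.84 (SE 0.22). HP, haptoglobin, differed by 2.35 (SE 0.65) with overlap. Without 2D array 1 the list's median was 0.45, and without it and static 3D array 1 it was 0.60, with 19 genes higher and 4 lower. The hepatocyte marker list, which shares members with these lists, had 14 of 15 genes higher, and its mean was 13.42, 13.25 and 13.86 in static 3D and 13.50 and 13.40 in perfused 3D, against 11.44, 13.09 and 12.71 in 2D, without overlap. Its median of 0.86 was 0.40 without 2D array 1 and 0.53 without both arrays.

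Among metabolic enzymes BHMT, which remethylates homocysteine, was second to PFKFB4 in p. It read 10.98, 10.23 and 10.81 in static 3D and 10.91 and 10.67 in perfused 3D, against 8.90, 9.36 and 9.04 in 2D, with no overlap, tight spread on both sides and a difference of 1.62 (SE 0.22, adjusted p 0.175). CPS1, the entry enzyme of the urea cycle, differed by 2.14 (SE 0.45) and AGXT, a peroxisomal aminotransferase, by 2.10 (SE 0.44), both without overlap. Without static 3D array 1 and 2D array 1 they differed by 1.45 and 1.36. Among measured genes of urea synthesis and amino acid breakdown 23 of 28 were higher, 5 (17.9%) without overlap, against 2.58% of all genes. The list's median was 0.40. That median was 0.23 without 2D array 1 and 0.17 without both arrays, with 19 genes higher and 9 lower. CREB3L3, a liver transcription factor of lipid genes that include APOA4 in mouse, had 9.76, 10.45 and 9.89 in static 3D and 10.81 and 10.03 in perfused 3D, against 6.99, 9.67 and 7.39 in 2D, where array 2 nearly reached the scaffold values. ATF5, another liver transcription factor, differed by 0.99 (SE 0.27) without overlap, or 0.58 without both arrays, and the list's median of 0.43 was 0.06 without 2D array 1. ANGPTL8, a regulator of lipoprotein lipase, differed by 2.18 (SE 0.50) without overlap, in a list of hepatokines and insulin-like growth factor genes with a median of 0.62, or 0.17 without 2D array 1.

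Of 14 cytochrome P450 genes of drug metabolism measured 13 were higher, with a median of 1.33, and none separated the formats. The median was 0.53 without 2D array 1 and 0.61 without it and static 3D array 1. CYP2C8, a drug-oxidising P450, read 14.23 and 14.07 in perfused 3D and 12.39, 12.25 and 13.44 in static 3D, against 7.71, 12.37 and 10.36 in 2D, where array 2 overlapped static 3D. Its interval of perfused minus static 3D, -1.04 to 3.95, held 0. CYP3A4, the main drug-oxidising P450 of adult liver, read 9.07 and 9.54 in perfused 3D and 5.88, 5.54 and 5.60 in static 3D, against 6.03, 5.73 and 5.80 in 2D. It was detected on the 2 perfused arrays alone, so the pooled level (at least 1.24-fold higher in scaffold, adjusted p 0.842) describes neither kind of scaffold. UGT1A1, which conjugates bilirubin, separated the formats at 1.17 (SE 0.30). The conjugation list as a whole had a median of 0.05, or -0.09 without 2D array 1. Among transporters AQP9, a glycerol channel, was higher by 1.66 (SE 0.42) and SLC2A2, the liver glucose transporter, was lower, at -0.72 (SE 0.24), both without overlap, in a list with a median of 0.64, or 0.28 without 2D array 1 and 0.21 without both arrays.

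Some of the sharpest separations lay outside the liver and oxygen lists. KISS1R, the kisspeptin receptor, read 9.44, 10.14 and 8.89 in static 3D and 9.80 and 7.59 in perfused 3D, against 5.78, 6.11 and 6.36 in 2D. It was detected on all 5 scaffold arrays and on none of 2D, at least 5.13-fold higher in scaffold (adjusted p 0.236). Without perfused 3D array 2, its lowest scaffold array, KISS1R was called beside PFKFB4, at least 6.75-fold higher in scaffold (adjusted p 0.0379). Leaving out its lowest scaffold array raises its difference, and this was its only call in 25 other settings. DUOXA2, the maturation factor of the hydrogen peroxide producer DUOX2, had 8.86, 9.60 and 8.20 in static 3D and 9.59 and 8.31 in perfused 3D, against 6.46, 7.30 and 6.81 in 2D, and was detected on 1 array of 2D. DUOX2 itself read 6.50, 8.77 and 6.43 in static 3D and 8.39 and 5.88 in perfused 3D, against 5.42, 5.86 and 5.38 in 2D. All scaffold values of both genes stood above 2D, but DUOX2 was detected on 2 scaffold arrays only. LTB, lymphotoxin beta, separated the formats at 1.33 (SE 0.26, adjusted p 0.477).

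MT3, a metallothionein known best from brain, differed by 3.09 (SE 0.72) and H19, a fetal imprinted RNA, by 3.49 (SE 1.06), both without overlap. The lowest scaffold value of MT3, 7.29 on perfused 3D array 2, lay just above its highest 2D value of 7.22. MT3 was detected on 1 of 3 2D arrays and H19 on 2 of 3. H19 read 14.36, 10.84 and 11.61 in static 3D and 10.995 and 8.46 in perfused 3D, against 8.31, 8.34 and 6.64 in 2D, so one perfused array lay just above 2D. Over 2D it differed by 1.97 for perfused and 4.51 for static 3D, which share the 2D arrays, and perfused minus static 3D was -2.54 (95% interval -5.07 to -0.01, adjusted p 1.00). AFP, the fetal albumin relative, did not share this direction: it read 9.45, 8.88 and 9.03 in static 3D and 9.23 and 8.95 in perfused 3D, against 10.26, 9.89 and 9.44 in 2D, with overlap.

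**Figure D3:**
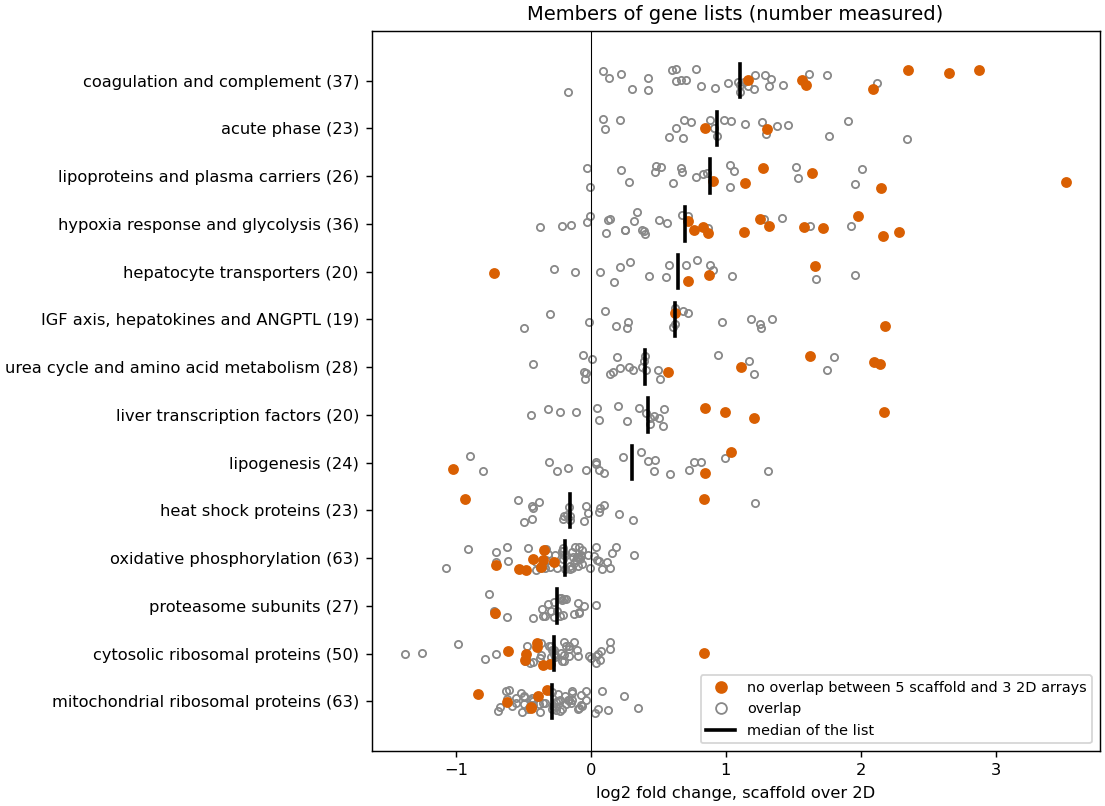
Log2 fold change, scaffold over 2D, of each measured member of 14 gene lists, with filled points for genes whose formats do not overlap and a black bar at the list's median. Liver secretion and oxygen-response lists lie to the right (coagulation and complement median 1.10), and ribosomal and respiratory lists a little to the left (mitochondrial ribosomal proteins -0.29).

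The lower side was made of many small differences. Respiratory chain genes, whose products pass electrons to oxygen and make ATP, were lower in scaffold in 53 of 63 measured and higher in 10, at a median of -0.19. In 8 of them (12.7%) every scaffold array lay below every 2D array, against 2.28% of all genes. The list mean was 11.40, 11.44 and 11.48 in static 3D and 11.44 and 11.55 in perfused 3D, against 11.71, 11.63 and 11.74 in 2D, with no overlap. Without static 3D array 1 and 2D array 1 the median was -0.19 with 12 members below both 2D arrays (7.23% of all genes were so placed). NDUFB3, a subunit of complex I, read 12.14, 12.21 and 12.13 in static 3D and 12.12 and 12.29 in perfused 3D, against 12.86, 12.56 and 12.56 in 2D. The 5 scaffold values lay within a narrow band below all of 2D, at -0.48 (SE 0.15). UQCR10 of complex III gave -0.70 (SE 0.24), although its 3 probes ranged from -0.70 to 0.06. COX16, an assembly factor of cytochrome oxidase outside that list, read 10.86, 10.85 and 10.66 in static 3D and 10.83 and 10.58 in perfused 3D, against 11.49, 11.33 and 11.35 in 2D, again without overlap (-0.63, SE 0.16, adjusted p 0.648).

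Ribosomal genes lay lower too. Of 63 mitochondrial ribosomal protein genes 57 were lower, 6 (9.52%) without overlap against 2.28% of all genes, at a median of -0.29. MRPL33, of the large subunit, read 11.22, 11.69 and 11.52 in static 3D and 11.56 and 11.87 in perfused 3D, against 12.77, 12.03 and 12.42 in 2D, all scaffold arrays below. MRPL21 gave -0.62 (SE 0.20) and MRPS21 -0.45 (SE 0.15), also without overlap. Of 50 cytosolic ribosomal protein genes 41 were lower, 7 of them without overlap, at a median of -0.27. Counting both directions, 16% of this list had no overlap, against 4.87% of all genes. RPS12 read 14.52, 14.66 and 14.68 in static 3D and 14.50 and 14.63 in perfused 3D, against 15.48, 14.85 and 14.91 in 2D, all scaffold arrays below. RPL37 went the other way without overlap (0.84, SE 0.26), and ribosomal genes have many near-identical copies that such probes may not tell apart. Of 27 proteasome genes 26 were lower, with a list median of -0.25. PSMD14, a deubiquitinating subunit, stood without overlap at -0.71 (SE 0.24). It was the only such member (3.70%), near the 2.28% of all genes so placed. 2D array 1, the array with the highest cell-cycle mean, had the highest mean of all arrays for both ribosomal lists and the proteasome list. Without it and static 3D array 1 the medians were -0.13 for mitochondrial ribosomal, -0.13 for cytosolic ribosomal and -0.13 for proteasome genes, and the differences of RPS12 and PSMD14 were -0.27 and -0.37. Without 2D array 1 alone the medians were -0.08, -0.15 and -0.07 for the same 3 lists.

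Cell-cycle genes were lower in 31 of 32, at a median of -0.43, and none separated the formats. Their mean was 9.77, 7.41 and 7.84 in static 3D and 7.55 and 7.52 in perfused 3D, against 10.16, 7.88 and 7.40 in 2D, without 2D array 1 the median turned to 0.31, and without that array and static 3D array 1 it was -0.12. The part of dividing cells in the ribosomal and proteasome differences was not tested.

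Single genes on the lower side were mostly dim or modest. RBMS2, an RNA-binding protein, read 6.18, 6.51 and 6.68 in static 3D and 6.39 and 6.39 in perfused 3D, against 7.93, 6.94 and 7.90 in 2D. It was not above background on any scaffold array and was detected on all 3 of 2D, at least 1.69-fold higher in 2D. HSPA4, a heat shock protein of the Hsp110 family, was likewise undetected on any scaffold array and detected on 2 of 3 2D arrays, at least 1.16-fold higher in 2D. Of 23 heat shock genes measured 16 were lower and 7 higher. Among the higher ones were HSPA1B, at 0.84 (SE 0.24) without overlap, and HSPA6, at 1.22 (SE 0.44) with overlap. ELOVL5, which lengthens polyunsaturated fatty acids, read 7.55, 7.38 and 7.88 in static 3D and 6.98 and 7.37 in perfused 3D, against 8.65, 8.06 and 8.63 in 2D, without overlap (-1.02, SE 0.26, adjusted p 0.648). RDX, which encodes radixin and links actin to the membrane, gave -0.78 (SE 0.20), and PDCD5, linked to apoptosis, -0.78 (SE 0.20). PRRG1, a transmembrane protein, gave -1.03 (SE 0.23), CFAP36, named for cilia, -0.89 (SE 0.21) and SETD9, a putative methyltransferase detected on 1 scaffold array and all 3 of 2D, -1.10 (SE 0.28). All 5 separated the formats.

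KRT7, a keratin of bile duct cells, had the largest lower difference of the separated genes. It read 10.74, 10.95 and 9.47 in static 3D and 9.65 and 9.21 in perfused 3D, against 12.36, 11.10 and 10.98 in 2D. The highest scaffold value lay just under the lowest 2D value, at -1.48 (SE 0.47). VIM, the intermediate filament vimentin, read 13.50, 13.90 and 13.69 in static 3D and 13.85 and 13.82 in perfused 3D, against 14.49, 13.92 and 13.99 in 2D, again with a narrow gap. Its unadjusted p was 0.056, and without static 3D array 1 and 2D array 1 it differed by -0.15. MYOF, a membrane-repair protein counted among YAP and TAZ targets, gave -0.61 (SE 0.21), or -0.39 without that pair. IGFBP3, of the same list, went the other way at 1.34 (SE 0.44), with overlap. In each of the lists of keratins and dedifferentiation, which also holds H19, and of YAP and TAZ targets 7 of 20 genes were higher in scaffold and 13 lower. List medians stood near 0, at -0.17 for keratins and dedifferentiation, -0.18 for YAP and TAZ targets and -0.03 for actin, tubulin and focal adhesion, and YAP and TAZ targets turned to 0.02 without 2D array 1.

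**Figure D4:**
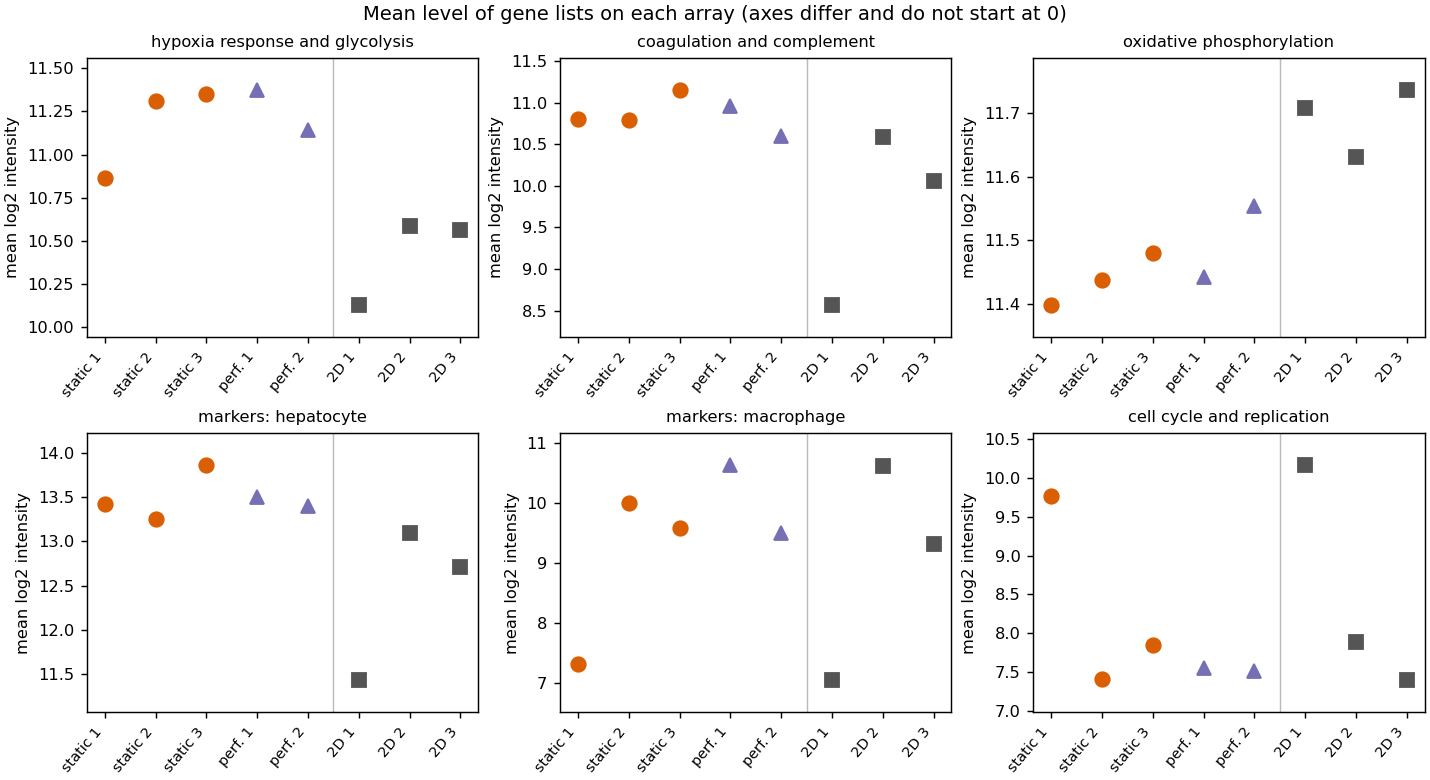
Mean log2 normalised intensity (vertical axis, different in each panel) of 6 gene lists on each of the 8 arrays, scaffold arrays left of the line and 2D arrays right of it. The oxygen-response mean is above 10.86 in scaffold and at most 10.58 in 2D, and the cell-cycle mean is high on static 3D array 1 (9.77) and 2D array 1 (10.16).

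The remaining lists had medians from -0.16 to 0.66. Medians were 0.52 for metallothioneins (-0.03 without 2D array 1), 0.37 for gluconeogenesis, 0.35 for iron handling, 0.35 for chemokines and cytokines, 0.34 for immediate early genes, 0.32 for matrix genes, 0.30 for lipogenesis, 0.21 for interferon response, 0.19 for the unfolded protein response and 0.18 for fatty acid oxidation. They were 0.15 for p53 targets, 0.08 for bile acid synthesis, 0.08 for integrins and junctions, 0.02 for cholesterol synthesis, -0.14 for NRF2 targets and -0.16 for heat shock proteins. Marker lists of other cells gave 0.44 for macrophages, 0.29 for stellate cells and fibroblasts, 0.37 for the 5 endothelial markers measured of 15, 0.12 for the 6 bile duct markers of 11, 0.14 for the 9 lymphocyte markers of 15 and 0.66 for the 2 erythroid markers of 9. In all of these the array means of the formats overlapped. Without 2D array 1 the medians of iron handling (0.030), interferon response (0.085) and fatty acid oxidation (0.0037) came nearer 0. Several turned below it, at -0.30 for matrix, -0.09 for chemokines and cytokines, -0.09 for integrins and junctions, -0.58 for macrophage, -0.36 for stellate and fibroblast, -0.05 for endothelial, -0.19 for bile duct and -0.13 for lymphocyte genes, with p53 targets and cholesterol synthesis at -0.03 each and heat shock proteins turned to 0.01. Without both arrays matrix, macrophage and stellate genes stood at -0.04, -0.05 and 0.05.

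Pooling asks for genes that part scaffold from monolayer whatever the flow, so perfused and static scaffold were also set against each other in a model with 3 group means. For the 10 genes of smallest p on either side, all 20 intervals of perfused minus static 3D held 0. A flow difference widens the spread in the pooled fit, so choosing by small pooled p favours genes without one. The intervals reached between 0.48 and 1.66 to either side of the estimate, so flow differences of that size were not resolved with 2 against 3 arrays. PFKFB4 gave -0.05 (95% interval -0.70 to 0.60), and its own differences over 2D were 1.95 for perfused and 2.00 for static 3D, which share the 2D arrays. Among all genes without overlap 5 of the 285 higher and 1 of the 252 lower had an unadjusted p under 0.05 for flow, against 1.88% of all genes, and choosing genes with all scaffold arrays on one side limits their spread between scaffold arrays. AQP9, UGT1A1 and H19 were among the separated genes whose flow interval left out 0, at 1.10 (0.14 to 2.05) for AQP9 and 0.85 (0.23 to 1.46) for UGT1A1, with adjusted p 1.00 each. CYP3A4 was the only gene called for flow (adjusted p 0.00219), at least 5.38-fold higher in perfused than in static 3D, where no array was above background. Both perfused arrays were on chip 1, as was static 3D array 1 and no other static array, so flow was tied to chip. The median SE was 0.26 for scaffold over 2D, 0.33 for perfused 3D over 2D and 0.29 for static 3D over 2D.

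**Figure D5:**
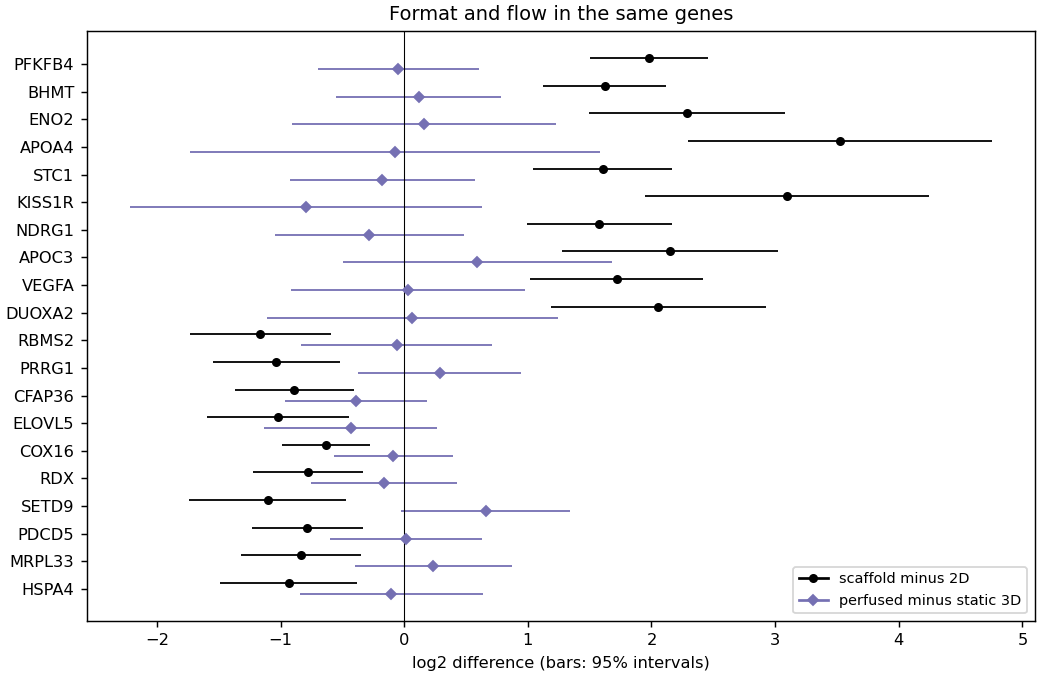
Log2 difference with 95% intervals of scaffold minus 2D (black circles) and of perfused minus static 3D (violet diamonds) for the 10 genes of smallest p on either side among those without overlap. The violet intervals all hold 0, in genes chosen by small pooled p, which a flow difference tends to raise. For PFKFB4 the 2 estimates are 1.98 and -0.05.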

How the data were processed

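Total RNA of 8 liver cell cultures was amplified, biotin-labelled and hybridised, per the labels' protocols. Per the file headers, the authors deposited bead intensities (means per probe, 47323 probes) before any normalisation between arrays, and a detection p-value beside each intensity. A second deposited table holds processed log2 values, made in a way that the sources used here do not give, and served as an alternative.

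Background was corrected in limma 3.58.1 (R 4.3.3) by normexp with an offset of 16, the negative controls being inferred from the detection p-values, then quantile normalisation and log2 followed. Probes detected (p under 0.05) on at least 2 arrays were kept (18556), and for each gene the brightest of its named probes, which left 11031 genes. Symbols came from the platform annotation, updated through RefSeq (GRCh38.p14). Of the probes 30113 carry 1 symbol, 8 carry several and 17202 are unlisted and stayed unnamed. A fit with 2 means, 5 scaffold arrays and 3 of 2D, was moderated by eBayes with an intensity trend (6 residual degrees of freedom), two-sided, with Benjamini-Hochberg adjustment over all genes at 0.05. No overlap means all 5 scaffold arrays on one side of all 3 of 2D. A bound of at least N-fold sets the brighter group's mean against the dim group's detection limit. The scripts were tested on simulated data. The number of arrays limits the precision.

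Genes were named by a rule: the 10 of smallest p in each direction without overlap where fewer than 3 were called, the 3 of smallest p in each list, and ALB, AFP, CYP3A4, COL1A1, C1QB, TOP2A, VIM and KRT7. ERO1A, PFKFB3, ALDOC, SLC2A1, PFKL, KDM3A, BNIP3, EPO, HILPDA, PLG, KNG1 and DUOX2 fall outside it and were chosen after their values were seen. Not every gene that the rule picked from the lists is described. Many of those left out overlapped, among them SLC22A7 (1.96) of the transporters and UGP2 (-0.50) of the conjugation list. The groups, the gene lists and the rule were chosen with earlier results of these data known. Genes whose level can follow a person were left out of lists and naming. Alternatives changed the normalisation, background, filter, probe rule, model, chip and arrays.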

Additional observations from a re-analysis of the deposited data

Results flagged for a closer look

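Among 111 levels and list means examined, 9 had 1 scaffold array standing far from the other 4, by a criterion that chance meets in about 1 of 20 groups. Static 3D array 1 was the array in 6 of them. It had the highest PFKL level, 10.66, against 10.01 for the next, and the lowest HILPDA level, 8.02, against 9.76. Its C1QB level of 5.44 compared with 10.92 for the next lowest scaffold array, and COL1A1, the fibrillar collagen of stellate cells and fibroblasts, gave 6.39 against 10.96. Its mean of the cell-cycle list was 9.77, against 7.84 for the next, and its mean of the chemokine and cytokine list was 8.76, against 10.06. Perfused 3D array 2 stood apart in the other 3, with the lowest BNIP3 level, 12.47 against 12.88, the highest LCN2 level, 13.50 against 12.37, and the highest mean of the heat shock list, 10.86 against 10.59. The limma contrast of perfused minus static 3D was 3.63 for CYP3A4 (adjusted p 0.00219). Its level thus differed between the 2 kinds of scaffold culture, which were unevenly spread over the chips. No static 3D array was above background for it, so the difference is better read as at least 5.38-fold.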

How the results depend on the processing

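In 26 other settings, 65 of 70 genes followed kept their direction wherever they were measured. So did 23 of 41 list medians, among them the oxygen-response, coagulation, lipoprotein, respiratory and ribosomal lists. The 70 genes are most of those described above, with RPL29 and PSMB5, which are not described. No gene was called lower in any of these settings. No gene was called higher (0 against 1) with median scaling, no background correction, an offset of 50, the authors' processed values, no detection filter, unnamed probes added, either model with 3 means, chip as a fixed block, chip 2 alone, static 3D alone or perfused 3D alone, and the cause was not tested. Leaving out 1 array gave 0 to 2 calls, 329 to 900 genes without overlap on the higher side and 304 to 875 on the lower side, since fewer arrays overlap less. These counts were 1178 and 1524 with chip 2 alone, 547 and 571 with static 3D alone, 1192 and 1116 with perfused 3D alone, and 478 and 428 with no detection filter.

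Median scaling moved the median of all genes to -0.08, the share of higher genes to 39.9% and the higher genes without overlap to 141, and gave list medians of 0.046 for the unfolded protein response, -0.32 for oxidative phosphorylation, -0.29 for heat shock proteins and -0.14 for actin, tubulin and focal adhesion. The last was -0.14 with the mean of all probes, -0.13 with array weights and -0.10 with perfused 3D alone, where cholesterol synthesis gave 0.41, bile acid synthesis 0.38 and YAP and TAZ targets -0.45. Leaving out arrays, also both that stand apart, moved medians between 0.45 and 0.76 for oxygen response, 0.42 and 1.48 for coagulation, 0.21 and 0.76 for transporters, 0.15 and 0.77 for gluconeogenesis, 0.063 and 0.50 for liver transcription factors, 0.19 and 0.56 for lipogenesis, -0.025 and 0.81 for metallothioneins, -0.19 and 0.012 for heat shock proteins, 0.050 and 0.55 for interferon response and 0.17 and 0.95 for hepatokines and insulin-like growth factor genes. The lowest values of most liver lists came without 2D array 1.

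ALB turned to 0.018 with median scaling, 0.077 with the authors' values, 0.028 with the mean of all probes and 0.024 with array weights, and lay between -0.033 and 0.039 when arrays were left out. CYP3A4 turned to -0.28 with chip as a fixed block or chip 2 alone and -0.18 with static 3D alone. Chip 2 alone and static 3D alone leave out the perfused arrays. With chip as a fixed block the formats are compared within chip 2, which held no perfused array. C1QB turned to -0.19 with static 3D alone. When arrays were left out C1QB lay between -1.40 and 2.23, COL1A1 between -0.82 and 1.95 and TOP2A between -1.51 and 0.48, with the turned value of each without 2D array 1.

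No paired analysis was possible because replicate numbers here only follow the order of the samples. Chip 1 held scaffold arrays only, so within-chip values are those of chip 2, where PFKFB4 differed by 1.83 (adjusted p 0.762). The number of arrays and the detection limit restrict what dim genes such as RBMS2, HSPA4, KDM3A and DUOX2 can show.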
